A study of Homo sapiens with 6 samples.

Results

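The genes described here encode the contractile apparatus of non-muscle and smooth muscle cells: the myosin light chains MYL9, MYL6, MYL12A and MYL12B, the heavy chains MYH9 and MYH10, the light chain kinase MYLK, and the actin filament genes TAGLN, ACTA2 and TPM2. They are 10 of the 54261 gene symbols counted, taken by symbol. The set was chosen by its measured levels in these same libraries, MYL9 for counts that are unequal among the PHF8 knockout libraries, so the values of the 10 genes are given as a description. RNA was sequenced from 786-O, a VHL-deficient human cell line derived from clear cell renal carcinoma. The 3 knockout libraries came from 786-O cells given PHF8-sgRNA with CRISPR-Cas9 (genotype PHF8 knockout), and the 3 control libraries from 786-O cells given Control-sgRNA by the same method (genotype PHF8 wildtype). PHF8 is a histone demethylase, and the comparison asks which transcripts differ when it is targeted. All libraries are of a single cell line, and whether the knockout cells were cloned, or the libraries of a group grown as separate cultures, is not stated in the labels. The p-values therefore measure variation among these libraries alone, and that variation may be technical.

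Myosin II is a hexamer of heavy chains, essential light chains and regulatory light chains. Phosphorylation of the regulatory light chain, by myosin light chain kinase among others, switches the motor on, and myosin phosphatase switches it off. Non-muscle cells use this motor for cortical tension, adhesion, migration and the cleavage furrow, while smooth muscle and myofibroblasts add their own actin, tropomyosin and actin-binding proteins, many of them under serum response factor.

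Libraries held 21533615 to 29095133 counted reads. PHF8 had 10.8, 6.73 and 12.8 CPM in knockout libraries 1, 2 and 3, against 36.5, 35.0 and 32.9 CPM in control libraries 1, 2 and 3, so every knockout library was below every control library. CPM is the read count scaled to library depth with TMM factors. Knockout library 2 stood apart from the others of its group: counts of knockout libraries 1 and 3 differed with a chi-square per degree of freedom of 11.1, while pairs that include library 2 reached 57.8 and 74.3, and control pairs lay between 3.07 and 14.9. Of the 9 renal carcinoma markers, PAX8, a kidney lineage factor, was at a mean of 363 CPM in knockout and 223 CPM in control cells. The keratin gene KRT8 was at 567 and 570 CPM, and VIM was the highest of the 9, at 5984 and 5148 CPM. PAX2 was low and moved the other way from PAX8, at 3.09 CPM in knockout and 6.56 CPM in control cells. CA9 and NDUFA4L2 stayed under 1 CPM in every library. Of 7 markers of differentiated smooth muscle, MYH11 and MYOCD had 0 reads in all libraries, and the 7 together summed to between 0.403 and 0.808 CPM in knockout libraries and between 0.784 and 1.48 CPM in control libraries. Sums of 8 fibroblast markers were 1.41 to 2.33 CPM in knockout and 4.59 to 5.08 CPM in control libraries, with COL3A1 at 0. Endothelial markers (4 genes) summed to 1.498 to 3.02 CPM in knockout and 1.40 to 1.49 CPM in control libraries, with CDH5 at 0, and leukocyte markers (5 genes) stayed under 1 CPM each, with PTPRC, CD3E and LYZ among those at 0. Skeletal muscle markers (6 genes) summed to 100 to 115 CPM in knockout and 60.2 to 66.2 CPM in control libraries. Nearly all of that was the troponin gene TNNT1, with means of 105 CPM in knockout and 59.7 CPM in control cells, while MYOD1 had 0 reads.

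MYL9 encodes the regulatory light chain that is most abundant in smooth muscle (chromosome 20, 36541497 to 36551447, GRCh38). It had 3, 3 and 372 reads in knockout libraries 1, 2 and 3, against 930, 981 and 973 reads in control libraries 1, 2 and 3. In CPM these were 0.125, 0.121 and 13.7 in the knockout libraries and 40.8, 39.2 and 36.3 in the control libraries. Knockout libraries 1 and 2 were thus nearly empty of this transcript, knockout library 3 was intermediate, and the control libraries were close to each other. With 3 reads each, the control level over that of knockout libraries 1 and 2 was a ratio of 310 (exact 95% interval 106 to 1502) and of 320 (interval 109 to 1551). For knockout library 3 the ratio was 2.83 (interval 2.54 to 3.16). These intervals cover counting error only. In bulk RNA, fewer cells with a transcript and less of it per cell cannot be told apart.

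The group comparison of MYL9 gave a log2 fold change of -3.03 (SE 1.04), a mean over unlike libraries. Without knockout library 3 it was -8.24, and without knockout library 1 or 2 it was -2.48 or -2.46. On log2 CPM with a prior count of 2, the 3 knockout libraries spanned 6.10 for MYL9, while the median span was 0.33 over the 10315 tested genes that averaged 5 CPM or more. Only 1 of those genes had a larger span among the knockout libraries. Among the control libraries MYL9 spanned 0.17, and the median gene also 0.17. PHF8 itself was at 31.0%, 19.3% and 36.7% of its control mean in knockout libraries 1, 2 and 3, so library 3 was highest for both genes, although libraries 1 and 2 differed for PHF8 and not for MYL9. The part of the remaining PHF8 transcript in the MYL9 levels was not tested.

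**Figure D1:**
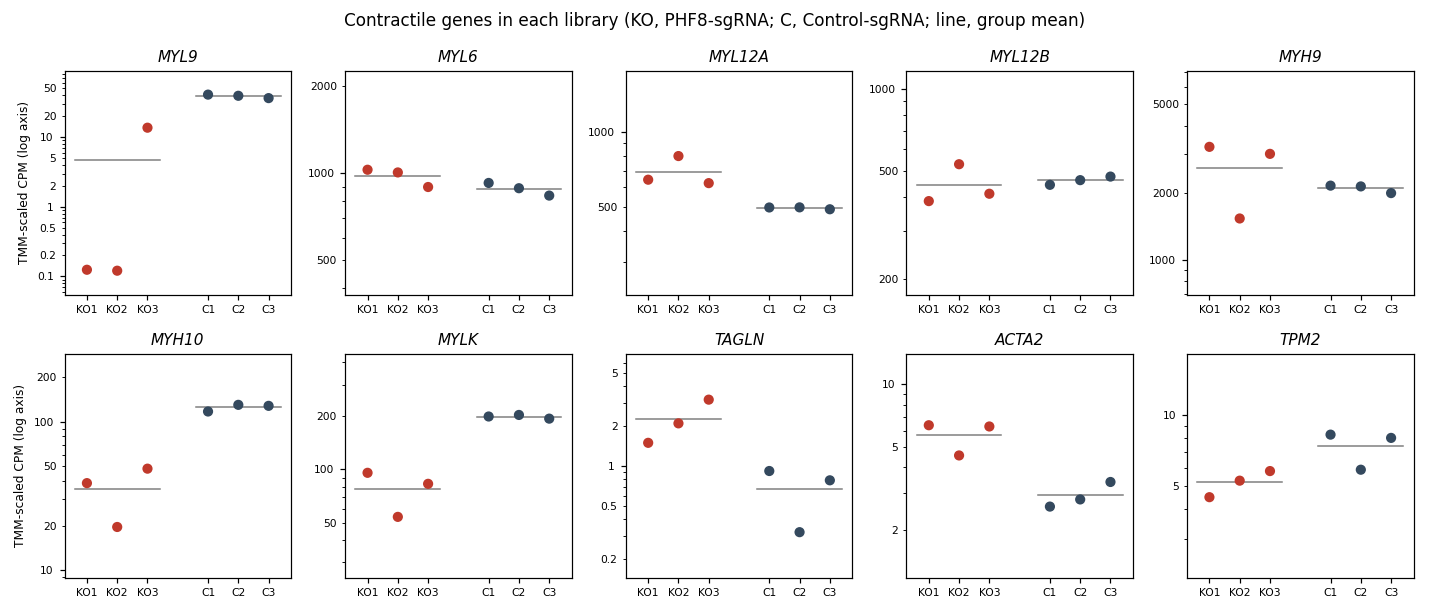
Read level of each contractile gene in the 6 libraries, in TMM-scaled CPM on a log axis, with 1 point per library (KO, PHF8-sgRNA; C, Control-sgRNA) and a line at each group mean. MYL9 is at 0.125 and 0.121 CPM in knockout libraries 1 and 2 but at 13.7 CPM in library 3, and MYH9, MYH10, MYLK and ACTA2 are lowest of the knockout libraries in library 2.

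Other genes shared this pattern over the libraries. Among the 10307 other tested genes that averaged 5 CPM or more, those with the highest Pearson correlation with MYL9 over the 6 libraries (log2 CPM) were RHOF, GSTP1, MAGEA3, DNAJC15, GALNT6, IL7R, WASF3, CD74, MMP16 and CENPV, with coefficients of 0.984 to 0.999. The 6 points fall into 2 groups of libraries, so the coefficients are only a description. GSTP1, a glutathione transferase, had 0, 0 and 310 reads in knockout libraries 1, 2 and 3, against 619, 676 and 705 reads in control libraries 1, 2 and 3. MAGEA3, a cancer-testis antigen with near-identical paralogs, had 4, 3 and 202 reads in the knockout libraries and 319, 371 and 379 in the control libraries. WASF3, an activator of actin branching, had 2, 3 and 58 reads in the knockout libraries and 227, 249 and 279 in the control libraries. RHOF, a small GTPase of filopodia, was less extreme, with 26.6%, 25.8% and 81.2% of its control mean in knockout libraries 1, 2 and 3.

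A search set after MYL9 had been seen took genes with at least 5 CPM in control cells that kept under 5% of the control mean in exactly 2 knockout libraries and over 10% in the other. It found 16 genes of 10353, and in all 16 the higher library was library 3. Besides MYL9 these were AGTRAP, ALPK3, BST1, CENPV, DNAJC15, GALNT6, GSTP1, MAGEA3, MMP16, PLAC8, PTK7, SCD5, SLIT2, TENM2 and WASF3. The share of the control mean that they kept in library 3 was not the same for all. It ran from 10.2% (AGTRAP) to 77.5% (TENM2), with a median of 24.9%, and was 35.2% for MYL9. A further 3 genes were under 5% in all 3 knockout libraries.

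**Figure D2:**
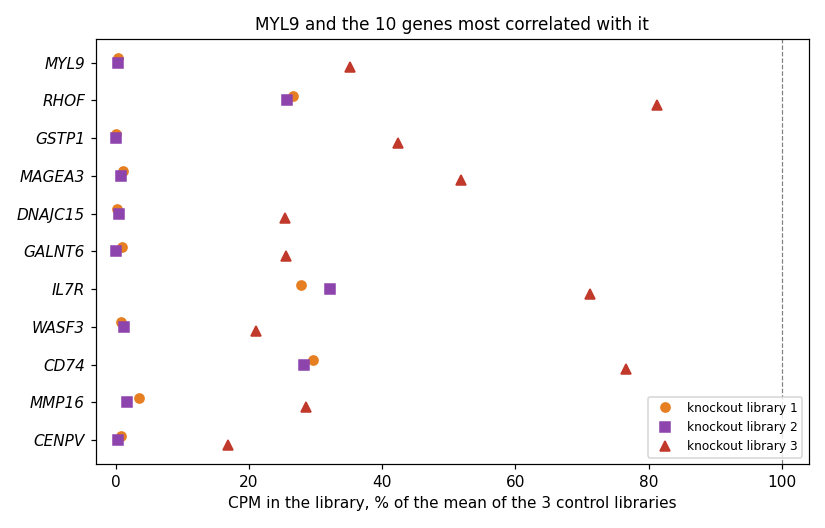
Level of MYL9 and of the 10 genes most correlated with it in each knockout library, as a percent of the mean of the 3 control libraries (dashed line at 100). Knockout libraries 1 and 2 lie close together for every gene, and library 3 lies to their right, at 35.2% for MYL9 and 81.2% for RHOF.

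The other regulatory light chains, MYL12A and MYL12B, are the ubiquitous non-muscle forms and are neighbours on chromosome 18 (3247481 to 3256236 and 3261479 to 3278461, GRCh38). Their coding sequences are 95.2% identical, and their longest shared run of bases is 77, so the split of their reads is uncertain. MYL9 is 78.6% identical to MYL12A and 80.5% to MYL12B over the coding sequence, with shared runs of at most 26 and 19 bases, so its reads are more easily told apart. The following stretches, coding bases 61 to 180 of MYL12A and 64 to 183 of MYL12B in GENCODE transcripts (GRCh38), show how alike the pair is, with the 5 bases that differ in capitals.
MYL12A: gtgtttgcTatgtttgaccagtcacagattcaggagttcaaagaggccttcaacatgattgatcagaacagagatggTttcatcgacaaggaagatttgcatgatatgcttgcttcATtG
MYL12B: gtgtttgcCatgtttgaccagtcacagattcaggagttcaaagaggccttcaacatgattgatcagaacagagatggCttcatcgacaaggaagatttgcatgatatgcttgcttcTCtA

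MYL12A had 643, 800 and 623 CPM in knockout libraries 1, 2 and 3, against 497, 498 and 489 CPM in control libraries 1, 2 and 3. All knockout libraries were above all control libraries, and library 2 was the highest. The log2 fold change was 0.48 (SE 0.11). MYL12B had 387, 528 and 412 CPM in the knockout libraries and 444, 462 and 476 CPM in the control libraries. These groups overlapped, with a log2 fold change of -0.06 (SE 0.12) that was -0.20 without knockout library 2.

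MYL9 made up a small share of all regulatory light chain reads. It held 0.0121%, 0.00911% and 1.30% of the reads of MYL9, MYL12A and MYL12B in knockout libraries 1, 2 and 3, against 4.15%, 3.93% and 3.63% in control libraries 1, 2 and 3. The exact 95% binomial intervals were 0.00250% to 0.0354% in knockout library 1, 0.00188% to 0.0266% in library 2 and 1.17% to 1.44% in library 3. In control library 3, the lowest of its group, the interval was 3.41% to 3.86%, so no knockout library reached it. The summed level of the 3 genes was 1030, 1329 and 1048 CPM in the knockout libraries and 982, 999 and 1001 CPM in the control libraries. With TMM factors, that total was not lower in any knockout library than in the control libraries. With library totals in their place, knockout libraries 1 and 3 were below all control libraries, and library 2 was above them. Within the close pair, MYL12A took 62.4%, 60.2% and 60.2% of the reads of MYL12A and MYL12B in the knockout libraries, against 52.9%, 51.9% and 50.7% in the control libraries.

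MYL6, the essential light chain shared by non-muscle and smooth muscle myosin (chromosome 12, 56158346 to 56163496, GRCh38), had the highest level per length of the 10. It had 1030, 1008 and 898 CPM in knockout libraries 1, 2 and 3, against 927, 889 and 838 CPM in control libraries 1, 2 and 3. The groups overlapped, and the log2 fold change was 0.15 (SE 0.09). The value turned to -0.02 with library totals in place of TMM factors and to -0.37 after a correction of each library for GC content and transcript length (the GC-length offset). MYL6 overlaps MYL6B and SMARCC2 on the annotation.

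The heavy chains parted. MYH9 encodes non-muscle myosin IIA (chromosome 22, 36281280 to 36388010, GRCh38) and had 3223, 1534 and 2997 CPM in knockout libraries 1, 2 and 3, against 2156, 2139 and 1996 CPM in control libraries 1, 2 and 3. Knockout libraries 1 and 3 were above all control libraries and library 2 below them all. The log2 fold change was 0.30 (SE 0.23), and 0.57 without knockout library 2. MYH10 encodes non-muscle myosin IIB (chromosome 17, 8474207 to 8631376, GRCh38) and had 38.6, 19.6 and 48.3 CPM in the knockout libraries, against 117, 130 and 128 CPM in the control libraries. Every knockout library was below every control library, library 2 again the lowest, and the log2 fold change was -1.82 (SE 0.27). MYH10 overlaps NDEL1 on the other strand, which had 885 to 913 reads in knockout and 741 to 876 in control libraries. MYH10 itself had 485 to 1316 reads in knockout and 2676 to 3431 in control libraries.

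The ratio of the heavy chains varied less among the knockout libraries than their levels did. MYH10 took 1.18%, 1.26% and 1.59% of the reads of MYH9 and MYH10 in knockout libraries 1, 2 and 3, against 5.16%, 5.73% and 6.03% in control libraries 1, 2 and 3. The means were 1.34% ± 0.21 in knockout and 5.64% ± 0.44 in control cells (SD, n = 3 each), and the groups were far apart on this share, library 2 included. The transcripts are 7451 and 7707 bases long and the coding sequences 72.1% identical, with a longest shared run of 31 bases.

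**Figure D3:**
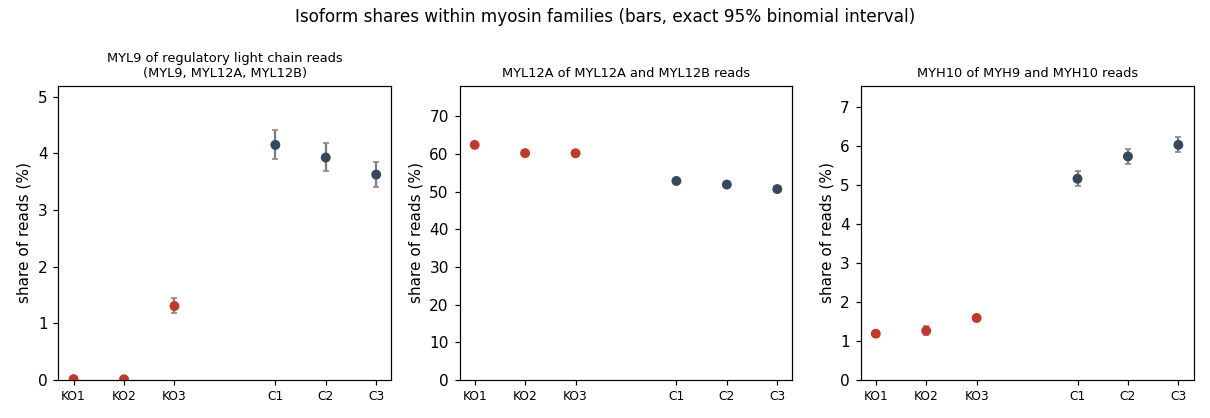
Isoform shares of reads (%) in each library, with exact 95% binomial intervals (counting error only). The first panel gives MYL9 among MYL9, MYL12A and MYL12B. The others give MYL12A within the MYL12A and MYL12B pair and MYH10 within the MYH9 and MYH10 pair. Knockout and control libraries do not overlap in any panel, and for MYH10 the knockout libraries lie between 1.18% and 1.59%.

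MYLK encodes myosin light chain kinase (chromosome 3, 123610049 to 123884332, GRCh38). It had 95.7, 54.1 and 83.0 CPM in knockout libraries 1, 2 and 3, against 198, 202 and 193 CPM in control libraries 1, 2 and 3. The groups did not overlap, and knockout library 2 was the lowest. The log2 fold change was -1.35 (SE 0.18), and -0.89 with the GC-length offset. The gene also has short transcripts from an internal start, which give the kinase-related protein telokin in smooth muscle, and counts per symbol do not separate them from the kinase. The antisense gene MYLK-AS1 had 27 to 32 reads in knockout and 46 to 53 in control libraries, far below MYLK.

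A CArG box, the motif bound by serum response factor, was searched by its name's consensus on both strands in the 250 bases before each start in the RefSeq promoter table (GRCh38.p14). Of 10 genes 8 matched the table, with 14 starts, and MYL9 and TAGLN did not. MYLK matched at its internal start only, so the starts of its longer kinase transcripts were not searched. The box was present before 1 of the 14, the internal MYLK start, and before 1.16% of all 35116 starts. Only exact matches within the 250 bases were counted, so variant boxes and boxes farther away would be missed. The lack of a match is therefore not evidence that a gene has no such site. The stretch before that start, chr3:123620549-123620798 on the minus strand, is shown with the box in capitals.
MYLK internal start: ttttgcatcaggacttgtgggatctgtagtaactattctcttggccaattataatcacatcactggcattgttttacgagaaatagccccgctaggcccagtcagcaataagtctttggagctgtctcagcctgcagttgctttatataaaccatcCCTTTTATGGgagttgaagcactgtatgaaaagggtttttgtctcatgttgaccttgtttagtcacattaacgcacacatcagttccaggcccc

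TAGLN, ACTA2 and TPM2, genes best known from smooth muscle and myofibroblasts, were low in this line. TAGLN encodes transgelin, an actin-binding protein (chromosome 11, 117199370 to 117207464, GRCh38). It had 36, 52 and 86 reads in knockout libraries 1, 2 and 3, against 21, 8 and 21 reads in control libraries 1, 2 and 3, or 1.498, 2.10 and 3.16 CPM against 0.921, 0.320 and 0.784 CPM. All knockout libraries were above all control libraries, and the log2 fold change was 1.74 (SE 0.40). TAGLN overlaps PCSK7 on the other strand, which had 758 to 1226 reads in knockout and 1062 to 1261 in control libraries.

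ACTA2 encodes smooth muscle alpha-actin (chromosome 10, 88935074 to 88991339, GRCh38). It had 6.37, 4.56 and 6.28 CPM in knockout libraries 1, 2 and 3, against 2.59, 2.80 and 3.40 CPM in control libraries 1, 2 and 3. The groups did not overlap, with a log2 fold change of 0.97 (SE 0.20) that was 0.51 with the GC-length offset. The annotated span of ACTA2 overlaps FAS and STAMBPL1 on the other strand, which are more abundant, and actin genes share sequence, so its counts are uncertain. TPM2 encodes beta-tropomyosin (chromosome 9, 35681992 to 35690056, GRCh38). It had 4.49, 5.28 and 5.80 CPM in the knockout libraries, against 8.29, 5.88 and 8.03 CPM in the control libraries, with a log2 fold change of -0.51 (SE 0.18) that was -1.09 with the GC-length offset. The highest knockout library was just below the lowest control library.

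By edgeR's quasi-likelihood test over all 14398 tested genes, all 10 genes passed the filter on low counts and 7 had a Benjamini-Hochberg adjusted p under 0.05. MYL12A, TAGLN and ACTA2 were higher, MYL9, MYH10, MYLK and TPM2 lower, and MYL6, MYL12B and MYH9 did not pass. The background was 59.7% of all tested genes, 28.9% higher and 30.8% lower, and since the genes were chosen with results known, nothing is read from their count. With the GC-length offset 8 of the 10 passed, against 59.2% of all tested genes, with ACTA2 no longer among them (adjusted p = 0.057) and MYL6 and MYH9 added. The groups did not overlap in the same 7 genes, against 66.8% of all tested genes. The call of MYL9 was lost when knockout library 1 (edgeR adjusted p = 0.054), control 1 (0.073) or control 3 (0.060) was left out, and with DESeq2 (adjusted p = 0.14). The call of TPM2 was lost without the same libraries (adjusted p = 0.11, 0.12 and 0.14). Without knockout library 2, MYH9 (adjusted p = 8.7e-05) and MYL12B (adjusted p = 0.018) passed as well, so that 9 of the 10 did.

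**Figure D4:**
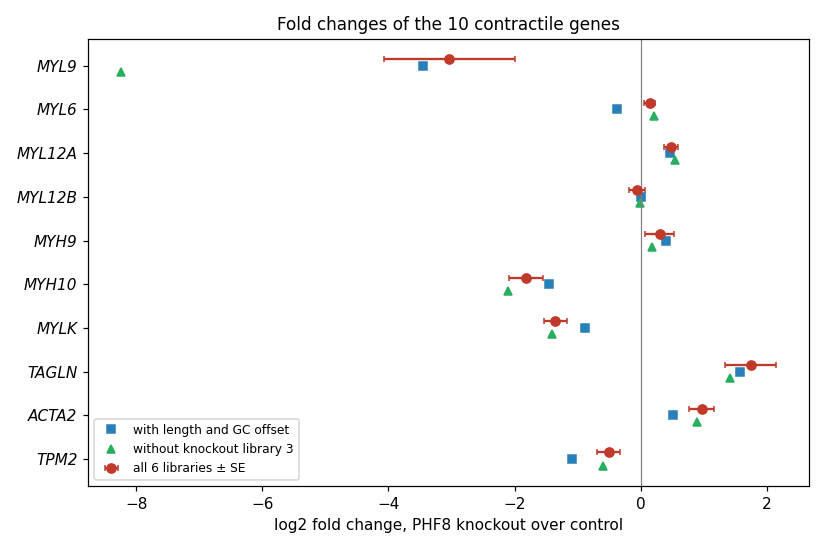
Log2 fold change of each gene, knockout over control, with all libraries (circle, bar ± SE), with the GC-length offset (square) and without knockout library 3 (triangle). MYL9 moves to -8.24 without library 3, and MYL6 is the gene whose value changes sign between circle and square.

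Per kilobase of the canonical transcript, the order of mean levels in control cells was MYL6 (1250 CPM per kb), MYL12A (517), MYL12B (396), MYH9 (281), MYLK (19.6), MYH10 (16.2), MYL9 (13.9), TPM2 (6.22), ACTA2 (2.17) and TAGLN (0.178). In knockout cells it was MYL6 (1382 CPM per kb), MYL12A (719), MYL12B (380), MYH9 (347), MYLK (7.67), MYH10 (4.61), TPM2 (4.36), ACTA2 (4.25), MYL9 (1.66) and TAGLN (0.595). The first 6 kept their order of means. Among the knockout libraries the ranges of MYL12B and MYH9 overlapped, as did those of MYLK and MYH10, and of MYH10, TPM2, ACTA2 and MYL9. Within each knockout library, MYLK was above MYH10, and MYH10 was above MYL9. The order of the other overlapping neighbours differed between the knockout libraries. The range of MYL9 also took in that of TAGLN. The MYL9 mean in knockout cells rests on knockout library 3, at 4.90 CPM per kb, against 0.0448 and 0.0434 in libraries 1 and 2.

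Knockout library 2 was clearly lowest of its group for MYH9, MYH10 and MYLK, which have the longest transcripts of the 10 (7451 to 10113 bases), and also for ACTA2, with one of the shorter (1349 bases). After the GC-length offset, MYLK had 96.5, 85.6 and 87.5 CPM in the knockout libraries and 175, 164 and 161 CPM in the control libraries. MYH9 then had 2918, 2187 and 2733 CPM in the knockout libraries and 2057, 1998 and 1903 CPM in the control libraries. MYH10 had 39.1, 28.2 and 50.5 CPM in the knockout libraries and 105.0, 110.1 and 111 CPM in the control libraries with the offset. Knockout library 2 thus remained the lowest of its group for all 3 genes, although for MYH9 it now lay above all control libraries. MYL9 kept its pattern with the offset, at 0.105, 0.115 and 11.3 CPM in the knockout libraries and 44.6, 46.0 and 42.8 CPM in the control libraries.

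Genes of the pathways that control myosin II were taken from a list by function. It also holds LIMK1, LIMK2 and CFL1, which control actin filaments rather than myosin, and all its genes are called regulators here. This list and those below were set with earlier results of these data known. Most genes named from them were picked for a small p, so their counts and p-values are a description. Of 34 regulators 31 were tested, 7 rose, 15 fell and 9 did not pass, with a median log2 fold change of -0.51, against -0.01 over all tested genes. Over all tested genes 28.9% rose and 30.8% fell. Under the GC-length offset there were 5 higher and 19 lower calls, at a median of -0.41, and over all tested genes 30.8% were higher and 28.5% lower. ARHGEF12, an exchange factor for small GTPases, fell to 51.7 ± 11.7 CPM in knockout cells, against 155 ± 18.6 CPM in control cells (SD, n = 3 each). Its log2 fold change was -1.58 (SE 0.17), with an edgeR adjusted p of 8.87e-05, and it was -0.80 with the GC-length offset. PPP1R12A, the myosin-binding subunit of myosin phosphatase, fell to 22.9 ± 2.81 CPM in knockout cells, against 60.5 ± 10.96 CPM in control cells (SD, n = 3 each). Its log2 fold change was -1.40 (SE 0.16), and -0.59 with the offset. PAK1, a kinase downstream of Rac and Cdc42, fell 1.81-fold (log2 fold change -0.85, and -0.94 with the offset). PPP1R14C, an inhibitor of protein phosphatase 1, had the largest rise of the list, 3.16-fold, and DAPK3, a kinase of the regulatory light chain, rose 1.74-fold. Their log2 fold changes were 1.66 and 0.80, and 1.51 and 0.24 with the offset.

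Among 17 other myosin II subunits only 3 were tested. MYL5, a light chain of the regulatory class, rose 4.35-fold, to 13.6, 15.8 and 12.8 CPM in knockout libraries 1, 2 and 3, against 4.12, 2.60 and 2.99 CPM in control libraries 1, 2 and 3 (edgeR adjusted p = 4.17e-05). Its log2 fold change was 2.12 (SE 0.19), and 1.48 with the offset. MYH3, the embryonic skeletal muscle heavy chain, rose 1.97-fold (edgeR adjusted p = 0.0018). MYL6B, an essential light chain, did not pass (log2 fold change -0.03, SE 0.11), but was lower with the offset (-0.65). Of the untested 14, none had more than 25 reads in a library. MYH11, the smooth muscle heavy chain, had 0 reads throughout, and MYH14, non-muscle myosin IIC, had 0 reads in each knockout library and 1 read in control library 3 only.

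The actin filament list was divided. Of 34 genes 29 were tested, 7 rose and 6 fell, with a median log2 fold change of 0.01, so 13 of 29 were called, against 59.7% of all tested genes. With library totals 5 rose and 8 fell, and with the GC-length offset 6 rose and 9 fell. Calls depended on single libraries: 20 passed without knockout library 2 and 8 without control library 2. ZYX, the focal adhesion protein zyxin, rose to 466 ± 28.8 CPM in knockout cells, against 246 ± 8.95 CPM in control cells (SD, n = 3 each), a log2 fold change of 0.92 (SE 0.09; edgeR adjusted p = 4.93e-05). With the offset the ZYX value was 0.38. CSRP1, a LIM protein of actin filaments, rose 1.78-fold (log2 fold change 0.83, and 0.34 with the offset). TMOD3, which caps filament pointed ends, fell 2.22-fold, but did not pass with the offset (-0.17 on the log2 scale). TPM1, PDLIM7 and CALD1, a tropomyosin, a LIM adaptor and the filament protein caldesmon, had log2 fold changes of 0.54, 0.58 and -0.57, and of 0.09, -0.05 and 0.05 with the offset, where none passed.

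The cytoplasmic actins moved apart. ACTB, beta-actin, fell to 5328 ± 272 CPM in knockout cells, against 6754 ± 344 CPM in control cells (SD, n = 3 each), a log2 fold change of -0.34 (SE 0.08; edgeR adjusted p = 0.0055). ACTG1, gamma-actin, had 5936 ± 404 CPM in knockout cells and 4837 ± 294 CPM in control cells (SD, n = 3 each), a log2 fold change of 0.30 (SE 0.09; edgeR adjusted p = 0.016). The direction of ACTG1 flipped with the offset (-0.17), and it did not pass with library totals (adjusted p = 0.23) or without knockout library 1, control library 2 or control library 3 (adjusted p = 0.063, 0.059 and 0.066). CNN1, the smooth muscle calponin, had 3, 0 and 8 reads in the knockout libraries and 5, 4 and 4 in the control libraries, too few to test.

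Of 9 genes in the list of serum response factor and its cofactors, 8 were tested, 2 rose and 2 fell, with a median log2 fold change of -0.23. Over all tested genes 59.7% were called. With the offset all 8 passed, 3 higher and 5 lower, against 59.2% of all tested genes, and with library totals 1 was higher and 4 lower. SRF had 107, 82.7 and 100 CPM in knockout libraries 1, 2 and 3, against 73.1, 71.7 and 67.6 CPM in control libraries 1, 2 and 3. Its log2 fold change was 0.45 (SE 0.11), with an edgeR adjusted p of 0.0078. With library totals it was 0.28 and did not pass (adjusted p = 0.053). FHL2, a LIM cofactor, rose 1.86-fold, and ELK3, a ternary complex factor that binds with SRF, fell 2.07-fold. Their log2 fold changes were 0.90 and -1.05, and 0.44 and -0.60 with the offset. MKL2, now named MRTFB, is an actin-regulated SRF coactivator and fell 2.201-fold (log2 fold change -1.14, SE 0.18; -0.42 with the offset), while its relative MKL1 (MRTFA) did not pass (log2 fold change -0.26, SE 0.18; -0.45 and past the threshold with the offset). MYOCD, the smooth muscle coactivator, had 0 reads in all libraries.

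**Figure D5:**
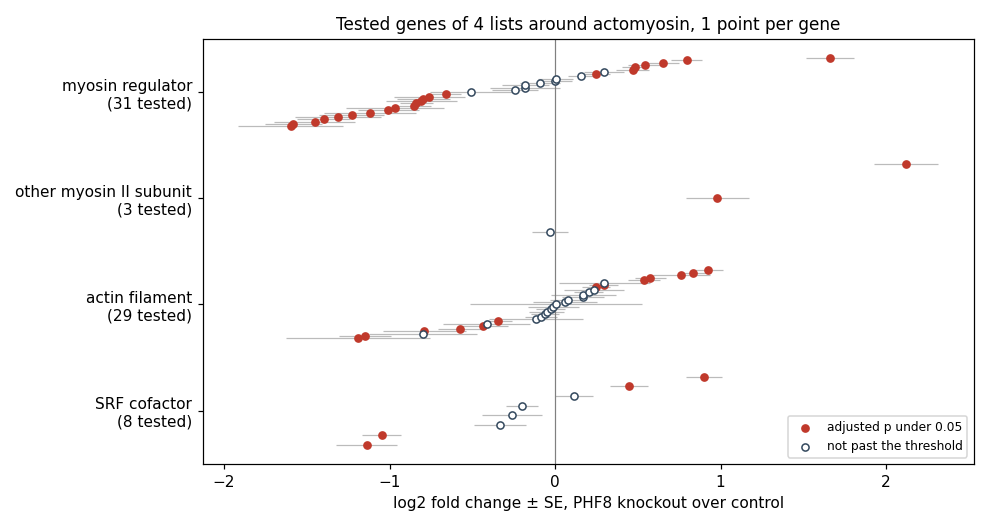
Log2 fold change ± SE, knockout over control, of the 71 tested genes of the 4 lists, 1 point per gene, filled where the adjusted p was under 0.05. Genes of the myosin regulator list lie mostly left of 0, with 15 filled points lower and 7 higher, and the actin filament genes lie on both sides.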

How the data were processed

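The deposited table holds unnormalised counts of reads per gene symbol. Per the labels' series design text, the authors filtered reads, mapped them to GRCh38 with HISAT2 (version 2.0.4, per the submitters' processing notes) and counted them with HTSeq. The HTSeq version, its strand setting and its annotation were not given in the sources used here. Columns were tied to samples by title. Knockout was tested against control with edgeR 4.0.16 under R 4.3.3 (quasi-likelihood test, TMM, filterByExpr, group as the only term, prior count 0.125), with Benjamini-Hochberg adjustment over 14398 tested genes. TMM factors were 0.936 to 0.957 in knockout and 1.05 to 1.07 in control libraries. The SE of a log2 fold change is its size over the square root of F. Alternatives were DESeq2 1.42.0, median-ratio factors, library totals, no filter, a filter that asks for more than 1 CPM in all 3 libraries of either group, a block for replicate number, each library left out in turn, and the GC-length offset. That offset took lowess trends (span 0.3) out of each library, using canonical GENCODE transcripts, which gave both properties for 92.4% of tested genes. Group differences that follow length or GC content are removed with it. Levels per kilobase use the same transcripts.

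The 10 genes and the lists were chosen with earlier results of these data known, so no p of the 10 genes or of the lists is used as support. The text names the 10 genes, up to 6 called genes with the smallest p in each list, a fixed set of pathway genes, PHF8, and the 10 genes most correlated with MYL9. Some genes that this rule names are not reported here. MYL6B, markers and overlapping genes are named beside these. Shares have exact Clopper-Pearson intervals, which cover counting error only. Libraries of a group differed by more than sampling noise, and none was treated as a duplicate. The test was tried on simulated counts of this comparison (14159 genes). It recovered 35.8% of 67 genes given a 1.5-fold change, 73.1% of 67 given a 2-fold change and 93.9% of 66 given a 4-fold change. Of its 147 calls, 12 were false. The simulation changed few genes and held no outlying library, whereas 59.7% of tested genes were called in the real data. These rates therefore may not hold for the real comparison.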

Additional observations from a re-analysis of the deposited data

How the results depend on the processing

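The number of called genes stayed within 1.5 times its value in every alternative for all genes (7170 to 9542, from 8593), the 10 contractile genes (5 to 9, from 7), the myosin regulators (20 to 24, from 22) and the other myosin subunits (2 to 3, from 2). With library totals in place of TMM factors, the log2 fold change of the median gene was -0.18 (-0.01 with TMM), and 36.7% of calls were higher (48.4% with TMM). Higher calls made up 20.8% of the regulator list's calls and 40.0% of the actin list's with the GC-length offset (31.8% and 53.8% without). The actin filament list gave 13 calls, with 8 to 20 when single libraries were left out. The SRF cofactor list gave 4 calls, 8 with the GC-length offset and 4 to 5 without single libraries. The ratio of the highest to the lowest knockout library for MYL9 was 113, 110 with library totals and 108 with the offset. Directions turned for MYL6 (-0.023 with library totals, -0.37 with the offset) and MYL12B (0.031 without knockout library 1). They also turned with the offset for PDLIM7 (-0.050), CALD1 (0.053) and ACTG1 (-0.17). The cause was not tested. Without knockout library 2, MYL12B kept its direction (-0.203). Same-numbered libraries of the groups did not deviate together (Pearson r = 0.02, -0.04 and 0.01 across genes, which are not independent replicates), so the numbers are not taken as pairs. With the replicate number as a block 8308 genes passed, and the same 7 of the 10 contractile genes passed. Depth limits MYL9 in knockout libraries 1 and 2 and TAGLN in all libraries.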
